A study of Mus musculus with 8 samples.

Results

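The genes of fatty acid desaturases and elongases were examined in DNA methylation data of mouse hepatocytes. They were 9 genes: the stearoyl-CoA desaturases Scd1 and Scd2, the fatty acid desaturases Fads1, Fads2 and Fads3, and the elongases Elovl1, Elovl3, Elovl5 and Elovl6. A CpG (a cytosine followed by a guanine) belonged to a gene when it lay in its body or within 1500 bases upstream of its start on mm10 and had at least 5 reads in every mouse. This gave 361 CpGs, of 897285 CpGs tested over the genome. The windows of the 9 genes hold 4544 CpGs in the genome sequence, so 7.94% of them were tested.

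Methylation was measured by reduced representation bisulfite sequencing (RRBS), in which DNA is cut at CCGG by MspI and unmethylated cytosines are read as thymine after bisulfite treatment. The libraries came from hepatocytes that were enriched from the liver by perfusion, of female C57Bl6/J mice, with 4 mid-aged animals at 40 weeks and 4 young animals at 10 weeks. Each mouse gave 1 library, the genotype of all 8 is given as C57Bl6/J, and the labels name no diet for them. The comparison asks where methylation in hepatocytes differs between these ages, and the age groups differ in sequencing depth too. The read counts of all CpGs summed to 84688363 to 118475218 in mid-aged and 46382661 to 72783367 in the young mice. A read is counted in these sums at each CpG it covers, so they are not numbers of sequenced reads.

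Long-chain fatty acids from the diet or from synthesis in the liver are reshaped by 2 kinds of enzyme in the endoplasmic reticulum. Desaturases insert double bonds, with electrons passed on by cytochrome b5, and elongases carry out the condensing step that lengthens the chain. In the liver, Scd1 and Elovl6 shape saturated and monounsaturated fatty acids on their way to triglycerides, whereas Fads1, Fads2 and Elovl5 make the long polyunsaturated fatty acids from dietary linoleic and linolenic acid. Many of these genes are driven by insulin and by sterol regulatory element binding protein. Methylation is usually low at CpG-rich starts of such genes and high along their bodies.

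Sequences are printed around the called CpGs of Scd1, Fads1 and Elovl5, for an Elovl6 cluster with a large difference, and for a place in Fads3 where the difference had the other sign. The Elovl6 cluster and the Fads3 CpG were not called. All sequences are written 5′ to 3′ on the strand of the gene (build GRCm38.p6, which is mm10), and capitals mark the tested CpGs. The Scd1 sequence lies in coding exon 6 of 6 (chr19:44397929-44397989, minus strand), the Fads1 sequence in intron 5 (chr19:10187956-10188080, plus strand) and the Elovl5 sequence in intron 1 (chr9:77925789-77925889, plus strand). The Elovl6 sequence is from intron 2 (chr3:129589728-129589937, plus strand), and the Fads3 sequence from coding exon 1 (chr19:10041781-10041811, plus strand).
Scd1 exon 6: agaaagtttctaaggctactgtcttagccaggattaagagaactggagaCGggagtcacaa
Fads1 intron 5: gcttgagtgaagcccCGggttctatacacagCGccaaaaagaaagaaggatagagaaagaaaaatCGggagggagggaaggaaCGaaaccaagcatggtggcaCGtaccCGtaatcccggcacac
Elovl5 intron 1: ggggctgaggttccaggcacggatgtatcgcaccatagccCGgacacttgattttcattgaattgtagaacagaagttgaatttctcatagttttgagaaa
Elovl6 intron 2: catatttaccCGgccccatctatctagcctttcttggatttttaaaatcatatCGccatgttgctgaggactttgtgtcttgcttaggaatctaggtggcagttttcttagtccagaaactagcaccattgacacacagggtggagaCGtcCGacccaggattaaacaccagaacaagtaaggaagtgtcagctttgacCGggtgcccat
Fads3 exon 1: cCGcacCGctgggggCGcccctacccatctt

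The genes differed in how many of their CpGs were tested. Elovl6 had 89, Fads1 72, Elovl5 71, Fads2 48, Fads3 27, Scd1 20, Scd2 18, Elovl1 13 and Elovl3 3. No CpG was tested from 1500 bases upstream to 500 bases downstream of the start of Scd1, Scd2 and Elovl6, so that the data say nothing of these promoters. Of the 361 CpGs, 147 were promoter CpGs and 214 lay further into the gene bodies. Over both groups, 221 were methylated below 20%, 101 above 80% and 39 in between.

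**Figure D1:**
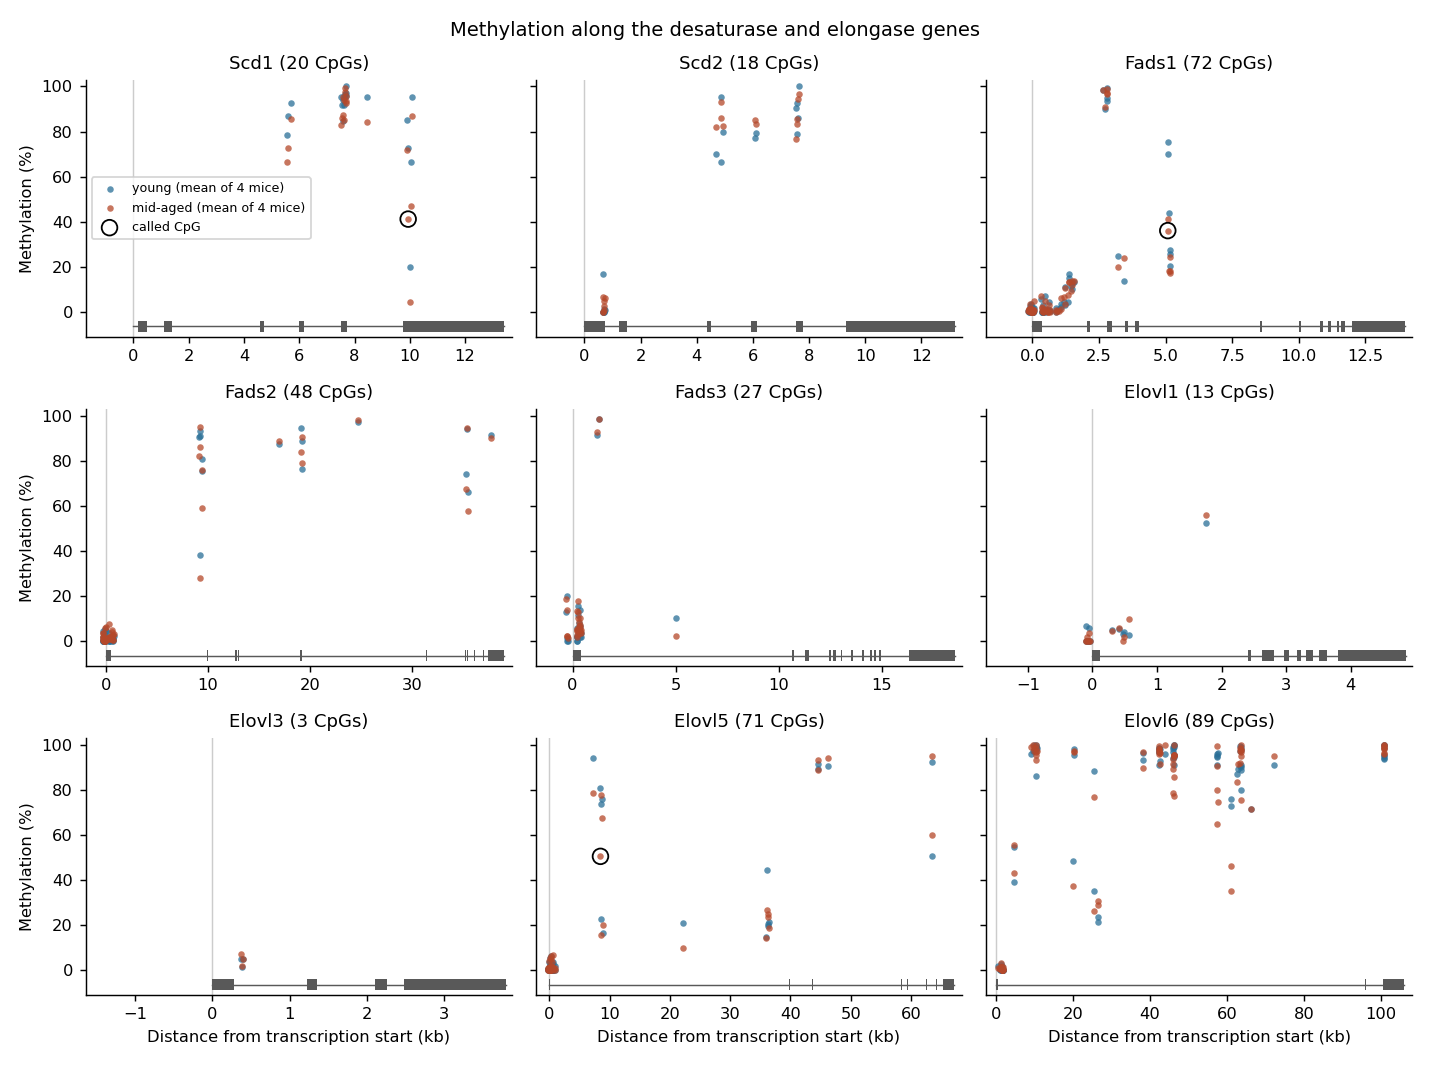
Methylation (percent of reads, y axis) of each tested CpG against its distance from the transcription start (kilobases, x axis) for the 9 genes, as the mean of 4 young and of 4 mid-aged mice. Grey boxes are exons and rings mark the 3 CpGs called in the test. The 147 promoter CpGs lie below 20%, and all 3 rings are in gene bodies.

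The mid-aged mice had lower methylation at 1 CpG each in the bodies of Scd1, Fads1 and Elovl5, with differences (mid-aged minus young) of -34.2 to -30.4 percentage points, and 0 CpGs of the 9 genes were called higher. A CpG was called when the adjusted p of a quasi-binomial test over all tested CpGs was under 0.05, the difference of the group means at least 5 percentage points, and the variance of the methylation fraction under 0.05 in both groups. With this rule 3 of 361 CpGs were called lower. Over all tested CpGs 0.102% were called lower and 0.0615% higher in mid-aged mice. Of protein-coding genes with a tested CpG 3.23% held a called CpG, and among the 9 genes 3 did. These shares are descriptions, as the 9 genes were chosen with earlier results of these data known. With limma on M values (the log2 ratio of methylated to unmethylated reads) none of the 3 was called, each at an adjusted p of 0.408, and over all CpGs 0 were then called lower and 3 higher. On simulated data with few changed CpGs this alternative recovered none of them. Of 66 changes of 30 points the main test recovered 43 without added spread between mice and 4 with the largest spread. Few changed CpGs make the adjustment over all CpGs strict, so the simulation cannot show whether the 3 calls are stable. The 3 called CpGs were among the 39 of intermediate methylation (20 to 80%), and of such CpGs in the bodies of all genes 0.792% were called lower.

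Scd1 codes for the main stearoyl-CoA desaturase of the liver, which makes oleic and palmitoleic acid. Its called CpG (chr19:44397939) lies in the last coding exon, 9940 bases from the start. It was methylated at 43.6, 35.8, 41.0 and 44.2% in the 4 mid-aged mice and at 75.6, 75, 75.6 and 64.2% in the 4 young mice. Every mid-aged mouse was below every young mouse, and young replicate 4 was the lowest of its group. The called CpGs of Scd1, Fads1 and Elovl5 were picked on these same mice, so a lack of overlap there adds no support. The means were 41.2% ± 3.81 and 72.6% ± 5.58 (SD, n = 4), and the adjusted p was 0.00183. This CpG was read 82 to 151 times in each mouse. The 95% Wilson intervals were 34.6 to 54.2% in the highest mid-aged mouse and 56.3 to 71.4% in the lowest young mouse, for counting error only. The call was made in all 8 fits that left out a mouse.

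The CpGs around it in Scd1 differed in the same direction. The other 4 tested CpGs within 500 bases had lower means in mid-aged mice, with differences of -19.7 to -8.44 points, and none was called. The nearest upstream in the gene, in the same coding exon, stood at 71.7% in mid-aged and 85.2% in the young mice, and the other 3 lay in the 3′ UTR. As a cluster (a run of at least 3 tested CpGs with at most 200 bases between neighbours), the 5 CpGs averaged 48.4, 51.6, 47.6 and 53.1% in mid-aged mice and 64.4, 73.7, 69.7 and 64.1% in the young mice. These groups do not overlap, the difference of the means was -17.8 points (95% confidence interval -25.9 to -9.68), and it missed the threshold over all clusters (adjusted p = 0.166, limma). The share of all clusters without overlap was not counted.

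Fads1 codes for the desaturase that makes arachidonic and eicosapentaenoic acid. Its called CpG (chr19:10187971) lies in intron 5, 5083 bases from the start and inside a CCGG. The mid-aged mice stood at 36.7, 35.8, 36.7 and 35% and the young mice at 65.2, 80, 64.7 and 70.8%. The groups are far apart, but the reads were few, with 17 to 67 in each mouse. The means were 36.0% ± 0.799 and 70.2% ± 7.11 (SD, n = 4) and the adjusted p was 0.0482, close to the threshold. The call was lost in 7 of the 8 fits that left out a mouse, with adjusted p of 0.0761 to 0.2, and held without young replicate 1 (0.0422). The difference stayed between -36.0 and -30.9 points in all of them.

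The called CpG of Fads1 is the outermost of a cluster of 6 tested CpGs, all with lower means in mid-aged mice. The next CpG, 16 bases on, had the largest difference in the gene, with 33.3, 40.0, 56.2 and 35% in mid-aged and 82.6, 69.2, 77.8 and 72.0% in the young mice, and was not called (adjusted p = 0.0844). The third CpG stood at 18.3% ± 3.58 in mid-aged and 43.8% ± 14 in the young mice, whereas the differences at the last 3 were -8.77 to -2.25 points. The mean of the cluster was 23.3, 26.2, 30.1 and 23.7% in the mid-aged and 37.7, 54.4, 41.8 and 41.3% in the young mice. The difference of -18.0 points (95% confidence interval -26.3 to -9.59) did not pass the threshold over all clusters (adjusted p = 0.176, limma).

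Elovl5 codes for an elongase of polyunsaturated fatty acids. Its called CpG (chr9:77925829) lies in intron 1, 8465 bases from the start, and in a CCGG as well. Its levels were 41.5, 52.7, 51.8 and 55.8% in mid-aged and 68.0, 84.4, 83.1 and 87.8% in the young mice, from 45 to 115 reads. Mid-aged replicate 1 and young replicate 1 were the lowest of their groups, and the groups did not overlap. The means were 50.4% ± 6.19 and 80.8% ± 8.79 (SD, n = 4, adjusted p = 0.0158). The call was lost in 5 of the 8 fits without a mouse (mid-aged replicates 1 to 4 and young replicate 4, adjusted p 0.0676 to 0.112), and the difference was -34.7 to -27.4 points in all 8. Of its 3 tested neighbours within 500 bases, 2 had lower and 1 had higher means in mid-aged mice, with differences of -8.30 to 3.71 points.

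**Figure D2:**
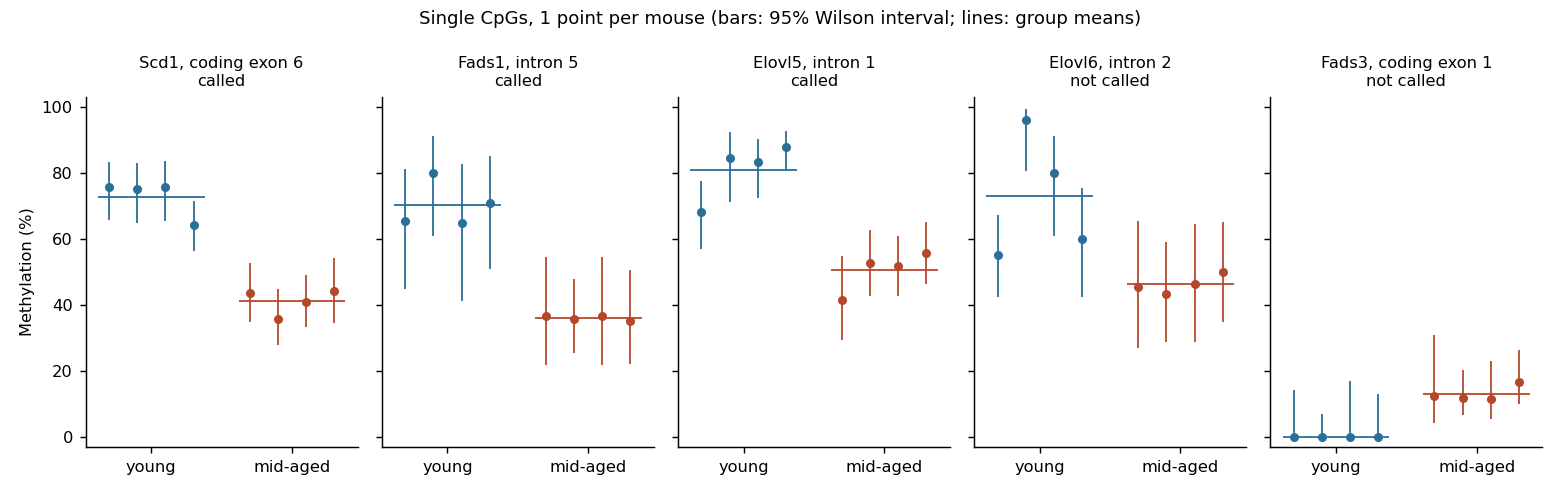
Methylation (percent, y axis) of 5 single CpGs in each mouse, with young mice to the left and mid-aged mice to the right in each panel. Bars are 95% Wilson intervals for counting error and lines are group means. In Scd1, Fads1 and Elovl5 every mid-aged mouse is below every young mouse, and in Fads3 the 4 young mice are at 0.

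The remaining genes held no called CpG. Elovl6 codes for the elongase that lengthens palmitic to stearic acid. Its CpG with the largest difference among those with at least 10 reads in every mouse (chr3:129593424, intron 2) stood at 45.5, 43.2, 46.2 and 50% in mid-aged mice and at 55.2, 96.0, 80 and 60% in the young mice. The young mice spread from 55.2 to 96.0%, and the adjusted p was 0.473. In intron 2 of Elovl6 the 2 clusters with an unadjusted p under 0.05 had lower means in each mid-aged mouse than in any young mouse. How many of all clusters lie apart in this way was not counted. The first, of 11 CpGs from 46017 to 46283 bases from the start, averaged 90.6% ± 0.602 and 96.7% ± 1.26 (SD, n = 4). The second is the printed sequence, and its 5 CpGs averaged 81.8% ± 3.57 and 94.6% ± 3.38.

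Neither Elovl6 cluster passed the threshold (adjusted p = 0.112 and 0.131, limma). With at least 10 reads in every mouse the second cluster was called, at -21.1 points with an adjusted p of 0.0467, over the 3 of its CpGs that were then left, whereas thinning the reads to the shallowest mouse gave an adjusted p of 0.404. With at least 3 reads the difference of the first cluster was -3.88 points (adjusted p = 0.577) in place of -6.06. The largest single difference of the second cluster was at 57520 bases from the start, with 66.7, 65.7, 58.2 and 67.7% in mid-aged and 100.0, 94.7, 85.7 and 83.9% in the young mice (adjusted p = 0.133). This CpG was named after its values were seen.

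**Figure D3:**
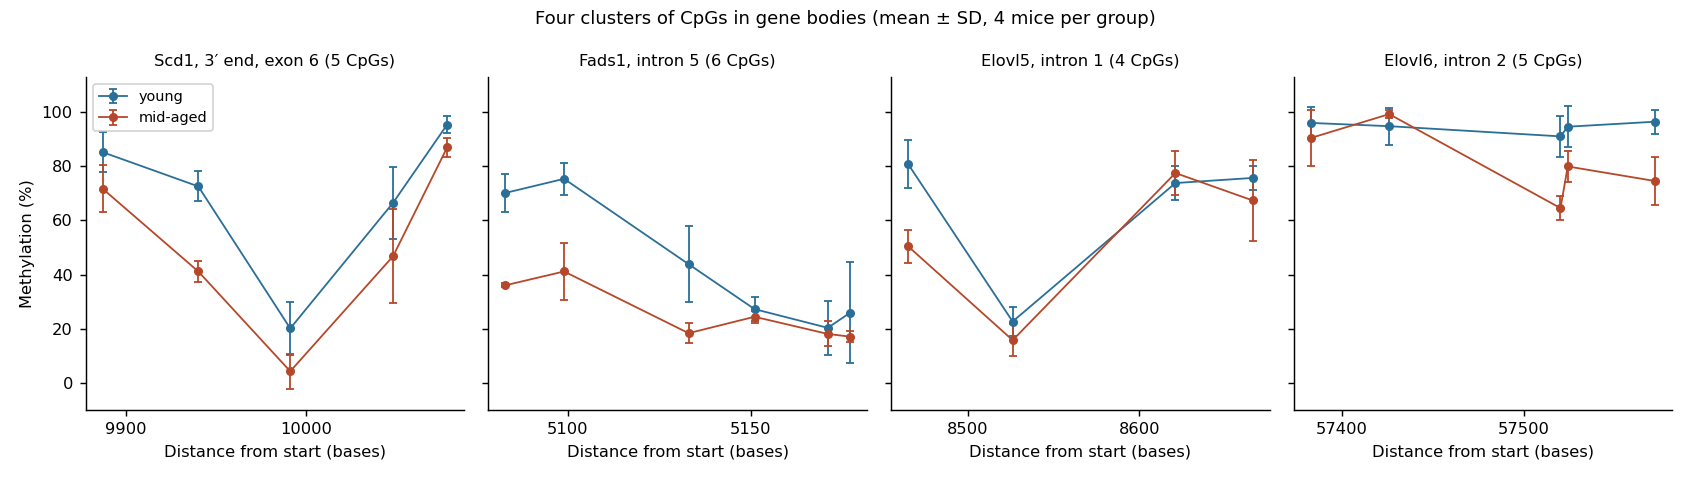
Methylation (percent, y axis) of the CpGs of 4 clusters in gene bodies against the distance from the transcription start (bases, x axis), as mean ± SD of 4 mice per group. In Scd1 and Fads1 each CpG is lower in mid-aged mice, in Elovl5 the difference is at the leftmost CpG, and in Elovl6 at the 3 rightmost. No cluster passed the adjusted threshold.

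Scd2 codes for the second stearoyl-CoA desaturase, which is prominent in brain and in developing liver. Its largest difference had the opposite sign to that of Scd1. The CpG chr19:44298526 in intron 3 stood at 91.7, 91.2, 86.1 and 75.6% in mid-aged and 50, 71.4, 80 and 64.4% in the young mice, from 12 to 45 reads. The groups overlap in part, and the CpG was not called (adjusted p = 0.451). The cluster of 4 CpGs around it averaged 85.9% ± 2.38 in mid-aged and 77.9% ± 3.64 in the young mice and did not pass either (adjusted p = 0.387, limma). Mir5114 is annotated in the window of Scd2.

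Fads2 codes for the desaturase that opens the polyunsaturated pathway. Its largest difference was at chr19:10092363 in intron 1, with 63.6, 61.0, 52.2 and 60% in mid-aged and 69.7, 86.0, 65.1 and 80.7% in the young mice (adjusted p = 0.36). The groups were next to each other without overlap. In a cluster 609 to 780 bases from the start, where methylation is low, mid-aged mice averaged 2.45% ± 0.52 and young mice 0.798% ± 0.788 (adjusted p = 0.37, limma).

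Fads3 lies beside Fads2 on chromosome 19, and its enzyme acts on sphingoid bases. Its largest difference was higher in mid-aged mice. The CpG chr19:10041796 in coding exon 1, 227 bases from the start, was methylated at 12.5, 11.8, 11.5 and 16.7% in the mid-aged mice and in none of the reads of the young mice. In the young mice 0 of 119 reads were methylated, which allows a level of up to 2.52%, against 32 of 239 reads in the mid-aged mice. The CpG just missed the threshold (adjusted p = 0.0513), and its neighbours 9 bases before and 17 bases after it stood at 1.67 and 17.9% in mid-aged and at 0 and 11.6% in the young mice.

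Elovl1, whose enzyme makes very long saturated chains, and Elovl3, which is active in skin, brown fat and liver, showed small differences. Among CpGs with at least 10 reads in every mouse, the one with the largest difference in Elovl1 (chr4:118429860, intron 1) was at 56.1% ± 8.75 in mid-aged and 52.4% ± 3.65 in the young mice, and the one in Elovl3 (chr19:46132266, intron 1) at 7.32% ± 2.71 and 4.76% ± 2.92 (SD, n = 4). In both genes the groups overlapped, and the adjusted p was 0.816 and 0.808. The window of Elovl1 overlaps Cdc20, that of Elovl3 overlaps Pitx3 and AC140233.1, that of Fads1 overlaps Mir6993 and that of Elovl6 overlaps Gm35986 and Gm43072. CpGs in such overlaps count for both genes.

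Over the 361 CpGs 149 had lower and 189 had higher means in mid-aged mice, with a median difference of 0.104 points, against 0.212 over all tested CpGs. Over the 214 gene body CpGs 101 were lower and 102 higher. At an unadjusted p under 0.05, 31 CpGs were lower in mid-aged mice (8.59%, against 3.93% of all tested CpGs) and 15 were higher (4.16%, against 5.16%). Every mid-aged mouse was below every young mouse at 14 CpGs (3.88%, against 1.24%) and above at 5 (1.39%, against 2.33%). Among the 39 CpGs of intermediate methylation, 27 had lower and 12 had higher means in mid-aged mice, with a median difference of -8.30 points. Over all gene body CpGs of intermediate methylation 47.2% were lower, and the median was 0.615 points. These comparisons are descriptions, as the genes were chosen with earlier results of these data known.

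In this class 12 of the 39 CpGs were lower and 1 was higher at an unadjusted p under 0.05, against 7.64% and 8.16% of all gene body CpGs of intermediate methylation. They came from few places, since the 39 CpGs fell into 21 runs of neighbouring CpGs, whose reads are shared in part. In Scd1 5 of 5 and in Fads1 6 of 6 such CpGs were lower, in Fads2 5 of 6, in Elovl6 7 of 11 and in Elovl5 4 of 8, and in Scd2 2 of 2 and in Elovl1 1 of 1 were higher. Elovl3 and Fads3 had none. No test was made over the genes as a list. They were chosen with earlier results of these data known, so these counts are descriptions.

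**Figure D4:**
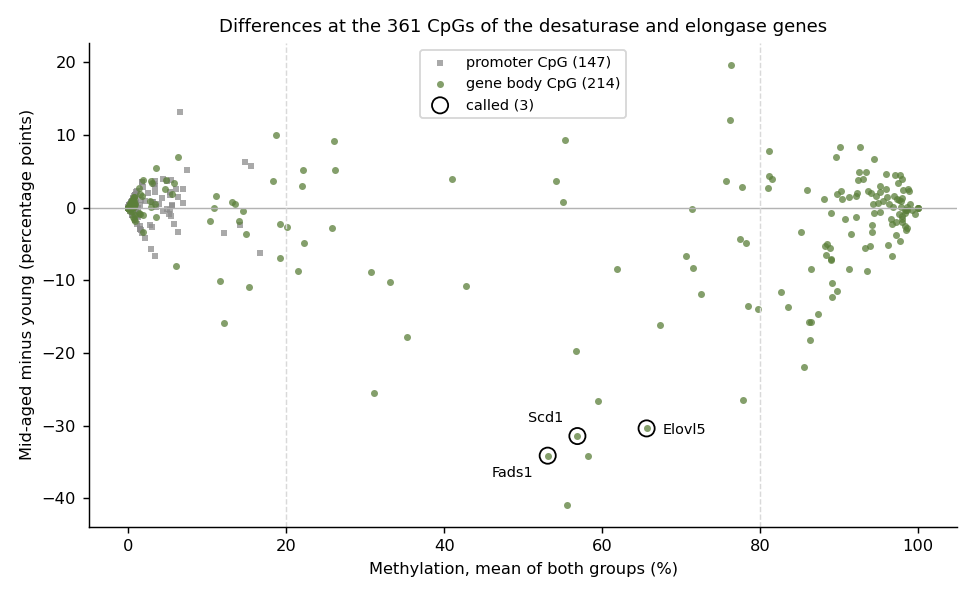
Difference of the group means (mid-aged minus young, percentage points, y axis) against the mean methylation of both groups (percent, x axis) at the 361 CpGs. Squares are promoter CpGs, circles are gene body CpGs, rings mark the 3 called CpGs, and dashed lines stand at 20 and 80%. Over all 361 CpGs 149 lie below 0 and 189 above, and between the lines 27 lie below and 12 above.

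The promoters that could be measured were almost free of methylation at both ages. All 147 promoter CpGs averaged below 20% over both groups, with a median of 0.789%, and none was called. Of the promoter CpGs of all genes 86.7% were below 20%, with a median of 1.04%. Among these, 0.0379% were called lower and 0.0426% higher. As means over the promoter, mid-aged and young mice stood at 1.04% ± 0.239 and 0.909% ± 0.0444 in Fads1, 1.57% ± 0.248 and 1.09% ± 0.652 in Fads2, and 0.999% ± 0.125 and 0.973% ± 0.377 in Elovl5 (SD, n = 4). For Elovl5 the 95% confidence interval of the difference was -0.48 to 0.533 points, and for Fads1 -0.275 to 0.535 points. Elovl1 stood at 1.52% ± 0.332 and 2.66% ± 1.92, and Elovl3, with 3 tested CpGs, at 4.6% ± 0.644 and 3.67% ± 0.944. These 3 CpGs lie in intron 1, 369 to 395 bases after the start, and no CpG upstream of Elovl3 was tested.

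Fads3 had the highest promoter level of the 6 measured genes. Its mid-aged mice were at 6.51, 6.15, 8.23 and 7.58% and its young mice at 3.87, 6.65, 4.99 and 5.90%. The values overlap, and the difference of 1.77 points (95% confidence interval 0.0193 to 3.51) did not pass the threshold (adjusted p = 0.551, limma). It was the sole promoter of the 6 with an unadjusted p under 0.05, and over all promoters 6.79% were higher at that level. None of the 6 was called, and of all promoters 0.0565% were called.

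Promoter sequences of 5 of the 9 genes (Fads2, Fads3, Elovl1, Elovl5, Elovl6) were at hand from RefSeq (GRCm38.p6), as 6 windows from 250 bases before to 50 bases after a start. Those of Fads2 and Elovl5 are shown up to the start, as examples of unmethylated promoters with few and with many tested CpGs, the tested CpGs again in capitals (Fads2 chr19:10101504-10101753, minus strand, and Elovl5 chr9:77917115-77917364, plus strand).
Fads2 promoter: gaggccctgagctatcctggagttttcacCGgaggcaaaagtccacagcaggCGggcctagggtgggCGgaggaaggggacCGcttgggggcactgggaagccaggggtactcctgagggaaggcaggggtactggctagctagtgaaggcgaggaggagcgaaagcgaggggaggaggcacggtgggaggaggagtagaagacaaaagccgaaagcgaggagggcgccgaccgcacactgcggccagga
Elovl5 promoter: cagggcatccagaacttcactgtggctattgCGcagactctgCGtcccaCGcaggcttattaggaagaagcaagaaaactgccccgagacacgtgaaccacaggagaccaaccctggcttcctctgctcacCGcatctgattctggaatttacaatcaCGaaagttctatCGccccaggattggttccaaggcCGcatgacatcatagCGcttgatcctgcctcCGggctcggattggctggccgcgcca

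The 4 tested CpGs of the Fads2 sequence averaged 2.17% in mid-aged and 1.53% in the young mice, and the 9 of the Elovl5 sequence 0.745 and 0.605%. On either strand, the Elovl5 window holds CCAAT, the letters bound by NF-Y, 2 times and the E-box CACGTG 1 time, and the Fads2 window the GC box GGGCGG 1 time. Over all 32851 RefSeq promoter windows 37.4% hold CCAAT, 7.15% CACGTG and 35.7% GGGCGG. Of the other windows, Fads3 holds CCAAT 2 times and GGGCGG 2 times, the windows of Elovl1 hold GGGCGG 5 and 2 times and the first of them CCAAT 1 time, and Elovl6 holds none of these letters. No CpG of the Elovl6 window was tested. The sterol element TCACNCCAC, where N is any base, is in none of the windows of the 5 genes, and 1.24% of all windows hold it.

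Over the gene bodies (beyond 500 bases after the start), the means of Scd1, Fads1 and Elovl6 were lower in each mid-aged mouse than in any young mouse, without passing the threshold. How many of all gene bodies lie apart in this way was not counted. Scd1 stood at 77.4, 82.0, 79.6 and 74.8% in mid-aged and 86.6, 88.6, 88.0 and 83.1% in the young mice, a difference of -8.12 points (95% confidence interval -12.3 to -3.97, adjusted p = 0.118, limma). Fads1 stood at 22.8% ± 1.04 and 25.6% ± 1.24 (adjusted p = 0.207), and Elovl6 at 66.4% ± 0.651 and 68.3% ± 0.526 (adjusted p = 0.352). With at least 10 reads in every mouse, the body of Scd1 was called (-9.41 points, adjusted p = 0.0189). This was the only call among 6 alternative settings. Thinning the reads to the lowest mouse at each CpG gave -6.49 points (adjusted p = 0.345, limma), and 0 of the 8 fits without a mouse called it.

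The other bodies overlapped between the ages. They stood at 34.7% ± 3.39 (with mid-aged replicate 1 at 29.7%) and 37.1% ± 1.20 in Elovl5, 54.3% ± 1.46 and 56.6% ± 2.80 in Fads2, 64.5% ± 2.43 and 66.7% ± 7.79 in Fads3 (3 CpGs), and 53.9% ± 1.40 and 51.9% ± 4.0 in Scd2 (SD, n = 4). Without mid-aged replicate 1 the Elovl5 difference was -0.682 points in place of -2.36. Weighting each CpG by its reads took the differences to -14.2 points in Elovl6, -13.8 in Elovl5, -10.3 in Fads2, -6.27 in Fads1, 6.06 in Scd2 and 16.4 in Fads3, none of them called. At an unadjusted p under 0.05, 3 of the 7 bodies were lower, against 4.41% of all bodies, and none of the 7 was called, against 0.508%. Of the 34 clusters in the 9 genes, 5 were lower and 3 higher at this level, against 3.30 and 5.21% of all clusters, and none was called, against 0.0839%.

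**Figure D5:**
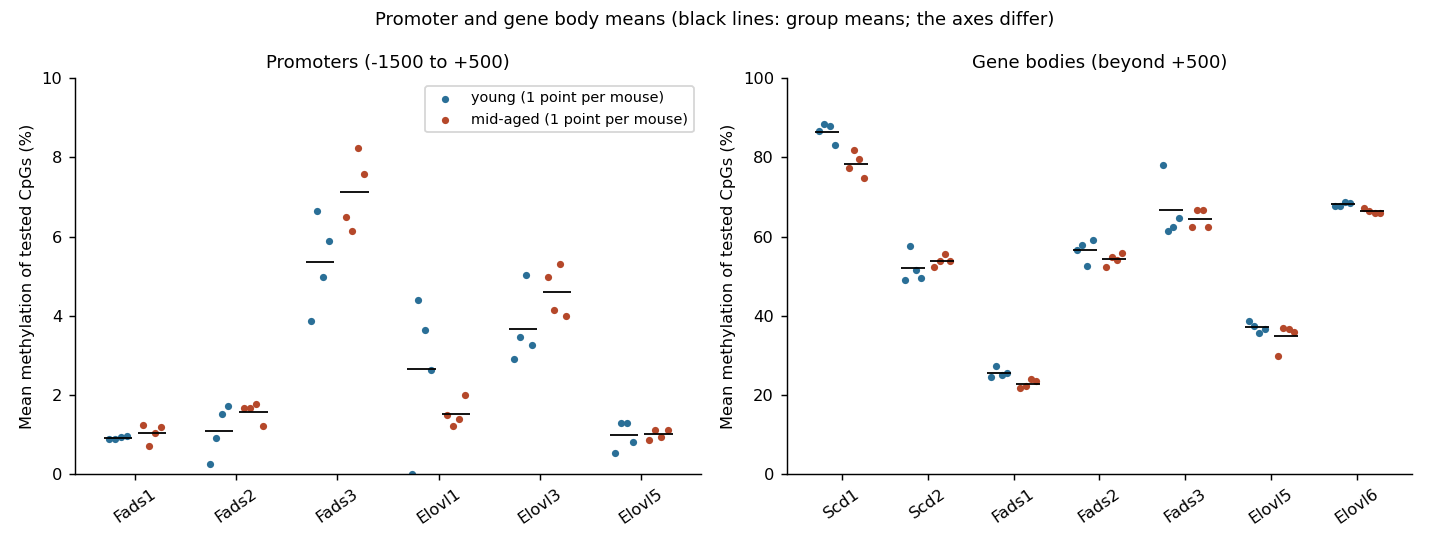
Mean methylation of the tested CpGs (percent, y axis) of promoters (left) and gene bodies (right), 1 point per mouse and black lines for group means, with different scales in the panels. The promoters reach at most 8.23% in any mouse, and the bodies of Scd1, Fads1 and Elovl6 are lower in each mid-aged mouse than in any young mouse. The share of all bodies apart in this way was not counted.

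The relatives of these enzymes showed no called CpG. Scd3 and Scd4, which lie beside Scd1 and Scd2 on chromosome 19, had 8 and 7 tested CpGs, and their bodies stood at 92.7 and 78.0% in mid-aged and 89.7 and 78.8% in the young mice (adjusted p = 0.53 and 0.85, limma). Elovl2, whose human counterpart is a widely used locus of methylation clocks, had a promoter mean of 2.12% ± 0.345 in mid-aged and 2.40% ± 0.464 in the young mice over 38 CpGs (adjusted p = 0.844, limma). The bodies of the other 5 were 60.3 and 60.4% in Fads6, 96.0 and 97.4% in Elovl4, 56.3 and 54.7% in Elovl7, 1.72 and 1.81% in Degs1, and 78.5 and 77.4% in Degs2, in mid-aged and young mice. In these 8 genes 0 of 324 CpGs were called, against 0.102% lower and 0.0615% higher of all tested CpGs.

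Among 48 genes of the pathway around the desaturases and elongases (these 8 relatives, the other enzymes of the elongation cycle, electron transfer to desaturases, regulators, and acyl-CoA activation and use), 46 had a tested CpG. Of their 2145 CpGs 7 were called lower (0.326%) and 0 higher, against the 0.102% and 0.0615% given above. The lists too were chosen with earlier results of these data known. They lay in Tecr, Mlxipl, Ppard and Acsl5, and no promoter or body of the 48 genes was called. The median difference was 0.0668 points over the 37 promoters and -0.0643 points over the 46 bodies, against 0.152 and 0.288 points over all promoters and bodies.

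Tecr codes for the reductase of the last step of elongation. Its called CpG (chr8:83573737, intron 3) stood at 38.5, 29.3, 32.6 and 31.3% in mid-aged and 56.8, 56.4, 54.2 and 58.5% in the young mice (adjusted p = 0.00294). Mlxipl codes for the carbohydrate response factor ChREBP. It had 2 called CpGs, both upstream of the transcript used for annotation, at 28.8% ± 4.08 and 65.7% ± 16.7 (chr5:135100716, adjusted p = 0.026) and at 74.5% ± 7.85 and 84.3% ± 2.31 (chr5:135093590, adjusted p = 0.00984), in mid-aged and young mice. At the second of them the groups overlapped.

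Ppard codes for a nuclear receptor of fatty acids, and its called CpG (chr17:28280755, intron 2) stood at 12.9% ± 2.94 in mid-aged and 38.3% ± 10.9 in the young mice (adjusted p = 0.0292). Acsl5 codes for an acyl-CoA synthetase that activates long-chain fatty acids. Its 3 called CpGs lie in intron 12, and the one with the lowest adjusted p (2.75e-05, chr19:55287502) stood at 41.7, 45.1, 44.0 and 43.8% in mid-aged and 76.0, 80.7, 76.8 and 73.3% in the young mice. The CpGs beside it stood at 57.7% ± 6.12 and 84.3% ± 5.07 (chr19:55287496, adjusted p = 0.00084) and at 78.3% ± 3.55 and 90.5% ± 2.04 (chr19:55287514, adjusted p = 0.0457). At the CpGs of Tecr, Ppard and Acsl5 and at chr5:135100716 of Mlxipl the groups did not overlap. These CpGs were picked by their call on the same mice, so the lack of overlap adds no support. Of all tested CpGs 1.24% had every mid-aged mouse below every young mouse. With limma on M values 0 of the 7 CpGs were called.

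The other lists gave no call. None of 142 CpGs was called in electron transfer (Cyb5a, Cyb5b and the cytochrome b5 reductases), none in Srebf1, Srebf2 or the other regulators except Mlxipl and Ppard, and none in the other genes of acyl-CoA use. The share called over all tested CpGs was 0.102% lower and 0.0615% higher. The promoter of Acsl4, which is X-linked, stood at 32.4% ± 2.28 in mid-aged and 32.8% ± 3.72 in the young mice.

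After perfusion the hepatocytes were filtered and pelleted repeatedly at low speed, which leaves most smaller cells behind. In the cells that remain, a change within hepatocytes and a change in the share of other cells cannot be told apart. The CpGs of marker genes gave no call in any of the lists for hepatocytes (162 CpGs), Kupffer cells and leukocytes (70), sinusoidal endothelial cells (215), stellate cells (486) and cholangiocytes (309). Of all tested CpGs 0.102% were called lower and 0.0615% higher. Per mouse, the mean of the tested marker promoters was 24.3 to 29.7% in mid-aged and 17.1 to 25.1% in young mice for hepatocytes (4 promoters), 85.8 to 96.1% and 81.4 to 93.7% for Kupffer cells and leukocytes (2), and 0.715 to 3.81% and 0.742 to 7.09% for endothelial cells (1). It was 12.7 to 14.4% and 11.6 to 12.7% for stellate cells (6) and 26.5 to 29.1% and 21.3 to 28.1% for cholangiocytes (3). At an unadjusted p under 0.05, 7 of the Kupffer cell and leukocyte CpGs were lower and 2 higher, 12 and 9 for hepatocytes, 13 and 14 for endothelial cells, 14 and 45 for stellate cells, and 8 and 24 for cholangiocytes. As shares these were 10.0 and 2.86%, 7.41 and 5.56%, 6.05 and 6.51%, 2.88 and 9.26%, and 2.59 and 7.77%, in this order. The shares of all tested CpGs were 3.93% lower and 5.16% higher.

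The bodies of marker genes had lower means in mid-aged mice in 2 of 6 for Kupffer cells and leukocytes, 4 of 10 for hepatocytes, 3 of 8 for endothelial cells, 0 of 7 for stellate cells and 2 of 7 for cholangiocytes. Some single genes, named after their values were seen, differed as much as the bodies described above. The body of Csf1r, a receptor of macrophages, stood at 39.4% ± 2.31 in mid-aged and 51.2% ± 4.16 in the young mice, with 6 of 8 CpGs lower at an unadjusted p under 0.05 (adjusted p = 0.0674, limma). That of Pklr, the pyruvate kinase of liver, stood at 53.1% ± 4.67 and 71.7% ± 6.72 (adjusted p = 0.0801), and that of Oit3 at 87.4% ± 3.54 and 94.2% ± 1.25, with 9 of 9 CpGs lower (adjusted p = 0.165). Other bodies were higher in mid-aged mice, such as Marco at 76.7% ± 6.26 and 67.3% ± 10.9 (adjusted p = 0.58, limma). Cftr stood at 92.4% ± 2.76 and 83.3% ± 8.43 (adjusted p = 0.427), and Ahsg at 17.3% ± 8.22 and 10.8% ± 5.01 (adjusted p = 0.62). The part of other cells in the results was not tested.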

How the data were processed

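The series was measured by RRBS in hepatocytes of 4 mid-aged and 4 young mice. The submitters' processing notes name mm10 and, with no role given, BWA 0.6.2, Picard 1.115, Trim Galore 0.4.2, SAMtools 1.3 and FastQC. For the methylation caller no name is given in the sources used here. The files deposited by the authors hold a percent methylation and a coverage (read count) for each CpG and strand.

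Methylated and total reads were recovered from these, strands were summed, and CpGs with at least 5 reads in all 8 mice were kept. Each CpG was tested with a quasi-binomial model of age, with dispersions moderated by limma 3.58.1 (R 4.3.3), and Benjamini-Hochberg adjustment over 897285 CpGs. A promoter ran from 1500 bases upstream to 500 bases downstream of the start. Means over promoters, bodies and clusters with at least 3 CpGs were tested with limma. RRBS sees CpGs close to CCGG, so most of each gene was not read. The median reads per tested CpG were 41 to 76 in mid-aged and 29 to 51 in young mice. Intervals and upper limits (3 counts) cover counting error. Named CpGs were those called and, in each gene, the one with the largest difference among CpGs with at least 10 reads in every mouse. The members and lists were chosen with earlier results of these data known. The tests were tried on simulated data with few changed CpGs, where limma on M values and the replicate block recovered none. Of 66 changes of 30 points the main test recovered 43 without added spread between mice and 4 with the largest. Alternatives were other read minimums, thinned reads, M values, weighted region means, other region limits, a replicate block and leaving out each mouse. Other assays of the study were not analysed here.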

Additional observations from a re-analysis of the deposited data

Results flagged for a closer look

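In each group of 4 mice the gap of the highest or lowest mouse to the nearest other, divided by the range, was set against Dixon's critical value at 95%, which chance passes in about 1 of 20 groups. Of 62 groups, from 31 values, 2 passed. In the body of Elovl5 mid-aged replicate 1 stood at 29.7%, and the other mid-aged mice at 35.8 to 36.9%. Without this mouse the difference of the Elovl5 body was -0.682 points, against -2.36 with it. At the called CpG of Scd1 young replicate 4 stood at 64.2%, and the other young mice at 75 to 75.6%. Without this mouse the difference at the Scd1 CpG was -34.2 points and the CpG was called.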

How the results depend on the processing

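The labels give both age groups replicate numbers 1 to 4. For same-numbered mice the correlation of their deviations from the group means was -0.00244 to 0.00811. For mice with different numbers it was -0.0091 to 0.0101. What same-numbered mice share besides the number was not tested. With the replicate block 0 of the 3 called CpGs of Scd1, Fads1 and Elovl5 were called (each at an adjusted p of 0.797), 5 CpGs of the 9 genes were higher at an unadjusted p under 0.05 (15 without it), and 0 pathway CpGs were called lower. Over all features, the pairing left 0 CpGs lower and 0 higher, 0 clusters lower and 1 higher, 4 bodies lower and 9 higher, and 0 promoters lower and 0 higher. These counts were 914, 552, 46, 31, 47, 46, 3 and 7 in the same order without it.

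On simulated data with few changed CpGs neither this block nor limma on M values recovered one. This cannot show whether the calls lost under them were stable. With limma on M values 0 CpGs of the 9 genes, 0 pathway CpGs and 0 CpGs over the genome were called lower, and 3 higher. With the reads thinned to the lowest mouse at each CpG 5 CpGs of the 9 genes were called lower and 5 were higher at an unadjusted p under 0.05. The Fads1 CpG at 5083 bases was then no longer called (-29.4 points, adjusted p = 0.288), and the one at 5099 bases was (-40.3 points, adjusted p = 0.0211). Thinning gave 13 clusters lower and 10 higher, 31 bodies lower and 11 promoters higher, and differences of 0 at the Elovl1 CpG, -0.926 at the Elovl3 CpG and -0.223 points at the Elovl5 promoter. Means weighted by reads gave 76 clusters lower, 22 bodies lower and 9 higher, turned the Fads3 body to 16.4 and the Fads1 promoter to -0.0523 points, and enlarged the differences of 5 other bodies by over 1.5 times (Elovl6 to -14.2, Elovl5 to -13.8, Fads2 to -10.3, Fads1 to -6.27 and Scd2 to 6.06 points). At most 100 bases between neighbours gave 27 clusters lower and 16 higher, and a promoter window of 500 bases to either side gave 1 promoter lower and 3 higher. With at least 3 reads the Fads3 promoter differed by -0.412 points. The causes were not tested.

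Leaving out each mouse in turn gave 1 to 3 CpGs of the 9 genes called lower and 9 to 15 higher at an unadjusted p under 0.05, 3 to 9 pathway CpGs lower and 0 to 1 higher, 335 to 1409 CpGs over the genome lower and 277 to 996 higher, 1 to 25 clusters lower and 5 to 15 higher, 17 to 38 bodies lower and 18 to 39 higher, and 1 to 5 promoters lower and 1 to 6 higher. The Elovl5 promoter ranged from -0.125 to 0.132 points, and the Fads3 body from -3.89 to 1.68. The 3 calls were also made with at least 3 or 10 reads. Taking away the lower limit on the dispersion changed no value and so tested nothing. The called Fads1 CpG had 17 reads in the shallowest mouse.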
